A study of Mus musculus with 6 samples.

Results

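Cell cycle and DNA replication genes were followed in mouse liver as a set of 37 genes in 3 groups by role. The G1 group had 12 members, the replication group 11 and the mitosis group 14. Each gene was read from 1 probe set, a group of short probes for one transcript. It was the brightest on average over the arrays among those that the platform annotation lists with that single gene symbol. By this rule 36 of the 37 members had a probe set, among 18194 genes in all, and the cyclin B1 gene Ccnb1 was not analysed here.

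Liver RNA of male C57BL6/J mice, aged 6 to 8 weeks at the start, was hybridised to Affymetrix Mouse Genome 430 2.0 arrays. There were 3 treatments in each of 2 studies. One group ate a fast-food diet (FFD) and received canertinib, which binds ERBB receptor kinases irreversibly and blocks them. These include the epidermal growth factor receptor. Another group ate the FFD alone, and the third ate chow. The FFD held 21% fat, 34% sucrose by weight and 0.2% cholesterol, with 18.9 g/L glucose and 23.1 g/L fructose in the drinking water. In the 2-month study canertinib was mixed into the FFD at about 80 mg/kg per day from start to end. In the 5-month study it was given by intraperitoneal injection at 80 mg/kg on 5 days a week over the last 5 weeks, and the mice on FFD alone were injected with vehicle. No injection is named for the 5-month chow mice, so diet and injection cannot be told apart there, and route, duration and study length changed together between the studies. Each group was 1 array with RNA pooled from 3 to 4 livers, so a difference within a study has no replicate check and no p-value. The tissue is whole liver, in which more cells of a type and more RNA per cell cannot be told apart.

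Cells enter the cycle through D-type cyclins, which activate the kinases CDK4 and CDK6 and release the E2F transcription factors. E2F then raises the genes of DNA replication, among them the MCM helicase subunits, and a later wave of genes drives mitosis. Hepatocytes of an adult liver are mostly outside the cycle but re-enter it after injury or loss of tissue, and epidermal growth factor receptor signalling is one of the inputs to cyclin D1 in these cells.

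Promoters of the late and early cell cycle genes carry short recurring letters, shown here for Cdk2 and Mcm2, members with large differences between arrays, and for Cdk1, as a mitotic gene in which all 3 kinds of letters occur. The sequences are the 250 bases upstream of the RefSeq gene start in build GRCm38.p6, 5′ to 3′ on the gene's own strand, which is the minus strand for all 3. They lie at chr10:128705052-128705301 for Cdk2, chr6:88898781-88899030 for Mcm2 and chr10:69352913-69353162 for Cdk1. Capitals mark E2F letters (TTTGGCGC, TTTCGCGC or GCGGGAAA), the cell cycle homology region letters TTTGAA and the CCAAT box, on either strand.
Cdk2: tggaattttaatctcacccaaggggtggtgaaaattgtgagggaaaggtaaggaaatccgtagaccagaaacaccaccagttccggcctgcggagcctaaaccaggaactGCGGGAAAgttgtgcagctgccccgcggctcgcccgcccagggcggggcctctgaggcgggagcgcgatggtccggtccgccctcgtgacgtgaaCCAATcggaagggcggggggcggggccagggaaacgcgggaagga
Mcm2: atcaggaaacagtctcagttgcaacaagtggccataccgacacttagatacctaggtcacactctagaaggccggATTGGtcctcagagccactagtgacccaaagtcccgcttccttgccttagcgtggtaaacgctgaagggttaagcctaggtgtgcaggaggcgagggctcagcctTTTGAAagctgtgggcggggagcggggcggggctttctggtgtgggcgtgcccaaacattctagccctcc
Cdk1: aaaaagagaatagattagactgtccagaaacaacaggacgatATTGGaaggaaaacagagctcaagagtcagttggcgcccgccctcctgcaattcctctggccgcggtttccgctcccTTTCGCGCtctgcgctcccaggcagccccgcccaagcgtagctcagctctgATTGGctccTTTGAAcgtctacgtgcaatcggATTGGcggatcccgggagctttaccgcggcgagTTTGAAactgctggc
Of the 37 members, 29 matched an entry in the promoter table. The E2F letters stood in 6 of these 29 windows (Mcm5, Mcm6, Mcm7, Cdc6, Cdk1 and Cdk2), and in 1.59% of the 27025 promoters of the same length. TTTGAA stood in 6 members (Cdc20, Ccnb2, Cdk1, Mki67, Top2a and Mcm2), and in 16.3% of all promoters. CCAAT stood in 20 members and in 34.5% of all promoters. The letters of no motif contain those of another, and a match describes the sequence only.

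Most G1 members gave a readable signal in these livers, and most mitotic members did not. Signals are on the linear MAS5 scale, on which the mean of each array without its lowest and highest 2% is 500. A floor was set at 221.4, the 50th percentile of all values, and lower signals were raised to it. Above the floor on all 6 arrays were 9 of 12 G1 members, 6 of 11 replication members and 2 of 13 mitotic members. Over the set this made 17 of 36 members (47.2%), against 54.3% of all genes, and 9 members (25%) were above it on no array, against 23.1% of all genes. Those 9 were the cyclin E2 gene Ccne2, Mcm6, the thymidylate synthase gene Tyms, the origin licensing gene Cdc6, the cyclin B2 gene Ccnb2, the proliferation marker gene Mki67, the spindle checkpoint genes Bub1 and Bub1b, and Birc5, which encodes survivin. Mki67 and Ccnb2 came closest, with a highest signal of 213 on the 2-month chow array and of 212 on the 5-month FFD array. A dimmer probe set of Mcm6 reached 276 on the 5-month canertinib array and was under the floor on the other 5 arrays.

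**Figure D1:**
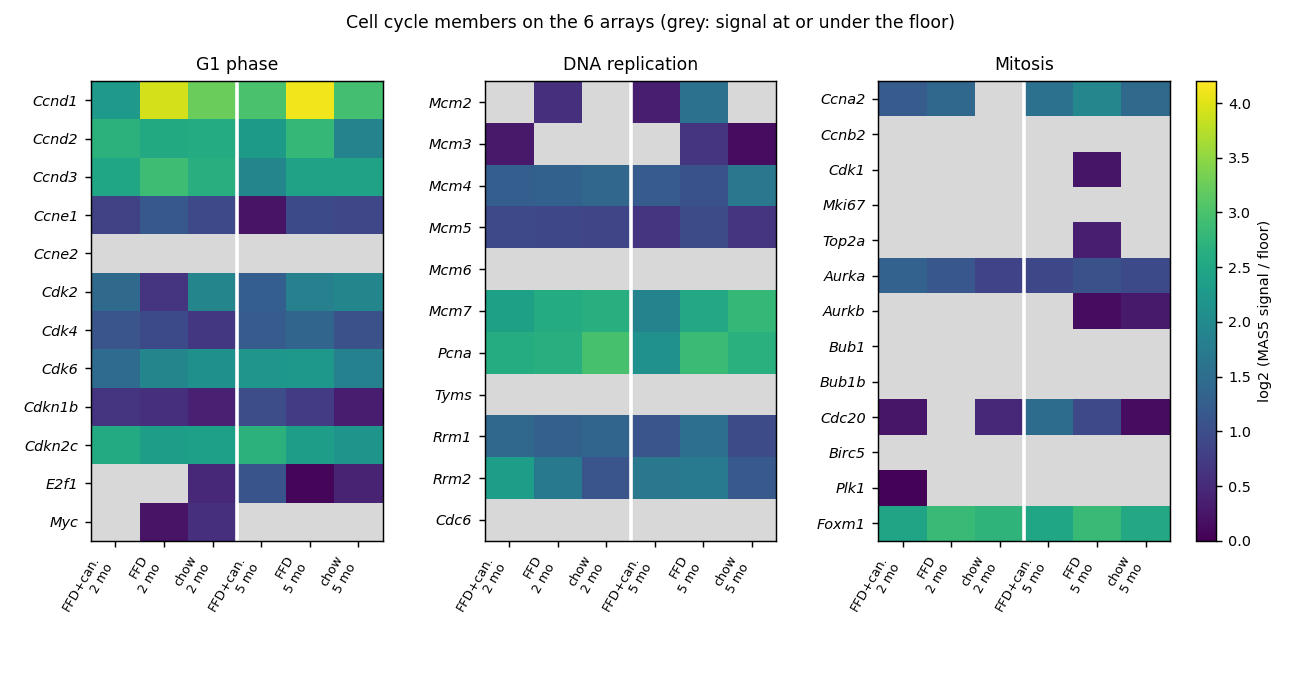
Signal of the 36 members with a probe set on each of the 6 arrays, as log2 of the MAS5 signal over the floor. Grey cells are at or under the floor, and colours should be read along a row only, since probe sets of different genes are not on a common scale. The Ccnd1 row is brightest on both FFD arrays, and most of the mitosis panel is grey.

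The number of members above the floor was highest on the array of the 5-month FFD liver. In the 2-month study 21 members were above it with canertinib, 20 with FFD alone and 20 with chow, and in the 5-month study 21, 25 and 22. Over all genes the shares were 66.6%, 65.7% and 66.6%, and then 64.8%, 66.5% and 66.0%, so the 5-month canertinib array was the lowest by that measure. The mitotic members account for much of this, with 5, 3 and 3 of 13 above the floor at 2 months and 4, 7 and 5 at 5 months. The mitotic kinase gene Cdk1 was above the floor only on the 5-month FFD array, at 262, and so was the topoisomerase gene Top2a, at 282. Aurkb, which encodes the kinase of the chromosomal passenger complex, was above it on the 5-month FFD array, at 244, and on the 5-month chow array, at 274. Plk1, another mitotic kinase gene, was above it only on the 2-month canertinib array, at 228. All of these lie close to the floor of 221.4.

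Few members differed by 2-fold or more, and cyclin D1 was the only one to do so in the same direction with canertinib in both studies. With canertinib against FFD alone at 2 months, 0 of 36 members had a signal 2-fold or more above and 1 had one 2-fold or more below, where 2.73% of all genes were above and 2.51% below. At 5 months, 1 was above and 2 were below, against 1.69% and 2.1% of all genes. FFD against chow put 1 member above and 1 below in the 2-month study (1.52% and 1.19% of all genes), and 2 above and 0 below in the 5-month study (2.09% and 1.41% of all genes). Canertinib and FFD against chow put 2 above and 0 below in the 2-month study (2.92% and 2.11% of all genes), and 1 above and 0 below in the 5-month study (2.17% and 2.09% of all genes). Between the chow arrays, 5 months against 2 months, 1 member was above and 0 were below, where 0.984% of all genes were above and 1.02% below. That pair differs in study but not in diet or drug, and its 95th percentile of the absolute log2 difference, over the 12137 genes with a mean signal above the floor, was 0.86. Counts of 0 to 2 of 36 are near these shares and are no result about the set as a whole, and the single members are described in turn.

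Among the G1 members, the cyclin D1 gene Ccnd1, whose product starts the passage through G1, was lower with canertinib and higher with the FFD in both studies. Its signal at 2 months was 1066 with canertinib, 3364 with FFD alone and 2092 with chow. At 5 months it was 1766 with canertinib, 3826 with FFD alone and 1709 with chow. The FFD array was therefore the highest in each study, and at 5 months the canertinib and chow arrays lay side by side. Canertinib against FFD gave log2 differences of -1.66 at 2 months and -1.12 at 5 months, or 3.16-fold and 2.17-fold lower. FFD against chow gave 0.69 and 1.16, or 1.61-fold and 2.24-fold higher. Against chow, the liver with canertinib and FFD had -0.97 at 2 months and 0.05 at 5 months. The chow arrays differed by -0.29, lower at 5 months.

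All 3 probe sets of Ccnd1 gave a lower signal with canertinib than with FFD alone. A second read 448, 1702 and 980 at 2 months, and 973, 2367 and 689 at 5 months, for canertinib, FFD and chow. Its log2 differences for canertinib against FFD were -1.92 and -1.28, and for FFD against chow 0.80 and 1.78. The third was at the floor with canertinib at 2 months, which leaves a bound of -0.15, and had -1.28 at 5 months. For FFD against chow it had -0.05 at 2 months and, with the chow array at the floor, a bound of 1.37 at 5 months, so it did not share the higher FFD signal at 2 months.

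**Figure D2:**
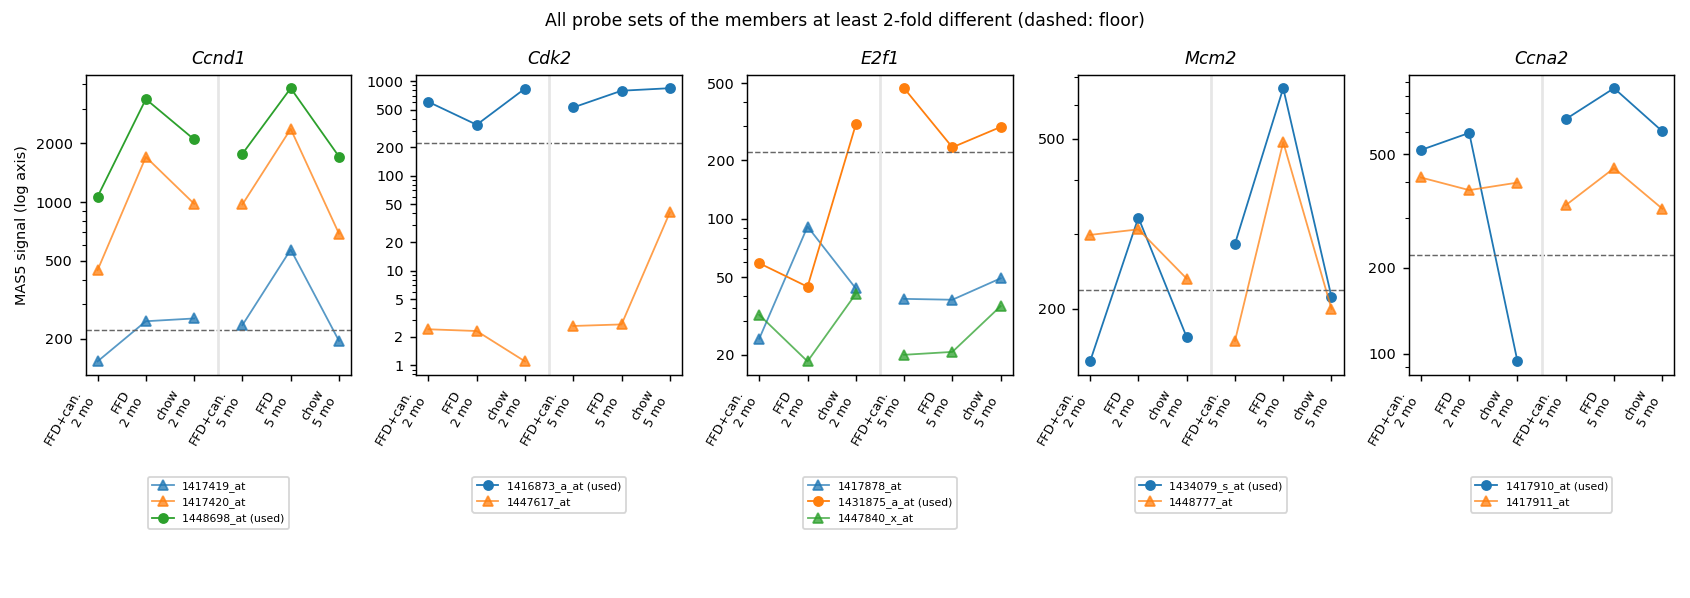
MAS5 signal, on a log axis, of every probe set of the 5 members at least 2-fold different in a canertinib or diet comparison, on the 6 arrays in the order canertinib, FFD and chow for each study. Circles mark the probe set used and the dashed line the floor of 221.4. All 3 Ccnd1 probe sets lie lower with canertinib than with FFD, both Mcm2 probe sets peak on the 5-month FFD array, and the dip of Ccna2 on the 2-month chow array is in 1 probe set only.

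The other D-type cyclins followed this less or not at all. The cyclin D2 gene Ccnd2 had 1445, 1292 and 1333 in the 2-month study, and 1078.5, 1544 and 811 in the 5-month study, for canertinib, FFD and chow. The cyclin D3 gene Ccnd3 had 1241, 1645 and 1389 in the 2-month study, and 839, 1187 and 1183 in the 5-month study. Ccnd3 was thus lower with canertinib in both studies, by log2 differences of -0.41 and -0.50, and had 0.24 and 0.00 for FFD against chow. Ccnd2 had 0.16 and -0.52 with canertinib and -0.05 and 0.93 with the FFD. The cyclin E1 gene Ccne1, which acts with CDK2 at the entry to S phase, had -0.33 and -0.73 with canertinib and 0.23 and 0.06 with the FFD on a probe set with the ending _x_at. Its other probe set went the opposite way at 2 months, with bounds of 0.33 and -0.28.

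The kinase gene Cdk2 differed in opposite directions between the studies. At 2 months it had 602 with canertinib, 345 with FFD alone and 832 with chow, and at 5 months 526, 789.5 and 840. The low value is that of the 2-month FFD array, and the 5 others lie between 526 and 840. FFD was accordingly 2.41-fold under chow at 2 months, a log2 difference of -1.27, and had -0.09 at 5 months. Canertinib against FFD had 0.80 and -0.59. Its other probe set was under the floor on all 6 arrays and gives no second reading. For the cyclin D partner kinases, the probe sets used gave differences between -0.15 and 0.34 for Cdk4 and between -0.45 and 0.39 for Cdk6 over the 4 canertinib and diet comparisons. Other probe sets of both genes differed more. A second one of Cdk6, above the floor on all arrays, had -0.88 and -0.27 for canertinib against FFD and 0.79 and 0.53 for FFD against chow, the signs seen for Ccnd1. Another had bounds of -0.90 and 0.49 with canertinib, and a Cdk4 probe set with the ending _x_at had -0.60 for FFD against chow at 2 months.

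E2f1, which encodes an activating E2F factor, was under the floor on both FFD-fed arrays of the 2-month study. It had 59 with canertinib, 45 with FFD alone and 306.5 with chow at 2 months, and 471, 234 and 297.5 at 5 months. The 5-month canertinib array was the highest, 2.02-fold over FFD alone, and 2 other probe sets of E2f1 were under the floor throughout. With a floor at the 60th percentile that log2 difference was 0.55 in place of 1.01, and with the probe sets of the gene averaged it was 0.34. The proto-oncogene Myc was above the floor only on the FFD and chow arrays of the 2-month study, at 260 and 331. The inhibitor genes were higher with canertinib by small amounts, Cdkn1b (p27) by 0.07 and 0.25 and Cdkn2c (p18) by 0.24 and 0.34 on the log2 scale.

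Among the replication members, the helicase subunit gene Mcm2 had the largest differences and its highest signal on the 5-month FFD array. It had 150.5 with canertinib, 327 with FFD alone and 172 with chow at 2 months, and 284, 658 and 213 at 5 months. The FFD array was the highest in each study, as for Ccnd1, but both chow arrays and the 2-month canertinib array were under the floor. At 5 months FFD was at least 2.97-fold over chow, and canertinib was 2.32-fold lower than FFD. At 2 months only bounds were available, 0.56 for FFD against chow and -0.56 for canertinib against FFD. A second Mcm2 probe set had 298, 307 and 235 in the 2-month study, and 168, 492 and 199.7 in the 5-month study, so it shared the peak at 5 months but showed -0.04 for canertinib against FFD at 2 months.

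Pcna, Mcm7 and Rrm2 were above the floor on all 6 arrays. The clamp gene Pcna, whose product holds the polymerase on DNA, had 1339, 1378 and 1751.5 in the 2-month study, and 968, 1605 and 1412 in the 5-month study, for canertinib, FFD and chow. Mcm7, another helicase subunit gene, had 1158.5, 1323 and 1393 in the 2-month study, and 809.6, 1277 and 1539 in the 5-month study. Both were lowest with canertinib in each study, with log2 differences against FFD of -0.04 and -0.73 for Pcna and -0.19 and -0.66 for Mcm7. Against chow, Mcm7 had -0.27 at 2 months and -0.93 at 5 months with canertinib, and the 5-month value lies beyond the 95th percentile of the chow pair. A second bright Mcm7 probe set had 1214, 1163 and 974 in the 2-month study, and 1105, 1318 and 1062 in the 5-month study, and was not lowest with canertinib in either study.

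Rrm2, which encodes the regulated subunit of ribonucleotide reductase, was lowest with chow in both studies. It had 1125, 717 and 477 in the 2-month study, and 712, 742 and 498 in the 5-month study. FFD against chow had 0.59 and 0.58, and canertinib against FFD had 0.65 and -0.06. Against chow, the canertinib liver had a signal 2.36-fold over it in the 2-month study and 1.43-fold over it in the 5-month study. These values come from a probe set with the ending _x_at, whose probes may match other transcripts. The other probe sets of Rrm2 were above the floor on 3 and 2 of 6 arrays. They had -0.20 and 0 for FFD against chow at 2 months, and 0.27 and 0.52 for canertinib and FFD against chow. The constitutive subunit gene Rrm1 had 0.14 and -0.43 with canertinib and -0.08 and 0.59 with the FFD, and a second probe set had 0.15 and 0.40, and -0.38 and 0.26. Mcm3 was above the floor on 3 arrays, between 244 and 343. The probe sets used for Mcm4 and Mcm5 were above it on all 6 and had differences between -0.62 and 0.34 in the 4 comparisons.

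Among the mitotic members with a readable signal, cyclin A2 stood out through 1 low array. Ccna2, whose product acts in S phase and at the entry to mitosis, had 518 with canertinib, 595 with FFD alone and 94 with chow at 2 months, and 665, 854 and 602.5 at 5 months. The 2-month chow array is the only one under the floor. FFD was therefore at least 2.69-fold over chow in the 2-month study, and 1.42-fold over it in the 5-month study. The same array also puts 5-month chow at least 2.72-fold over 2-month chow, a pair without diet or drug. A second Ccna2 probe set had 415, 375 and 398 in the 2-month study, and 332, 447 and 322 in the 5-month study, with -0.09 for FFD against chow at 2 months.

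The transcription factor gene Foxm1, a regulator of mitotic genes, was above the floor on all 6 arrays on the probe set used. It had 1218, 1595 and 1468 in the 2-month study, and 1225, 1580 and 1280 in the 5-month study, for canertinib, FFD and chow, so the canertinib array was the lowest in each study. Its log2 differences were -0.39 and -0.37 for canertinib against FFD and 0.12 and 0.30 for FFD against chow. Another Foxm1 probe set, with the ending _x_at, was above the floor on 3 arrays and had bounds of 1.08 and -0.72 for FFD against chow. The remaining Foxm1 probe sets were under the floor on all 6 arrays. The spindle kinase gene Aurka had 550, 491 and 400 in the 2-month study, and 417, 456 and 424 in the 5-month study. Cdc20, an activator of the anaphase-promoting complex, had 264, 204 and 311 in the 2-month study, and 621, 419 and 243 in the 5-month study. At 5 months Cdc20 was 2.56-fold higher with canertinib and FFD than with chow, whereas a second probe set had -0.28 in that comparison.

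**Figure D3:**
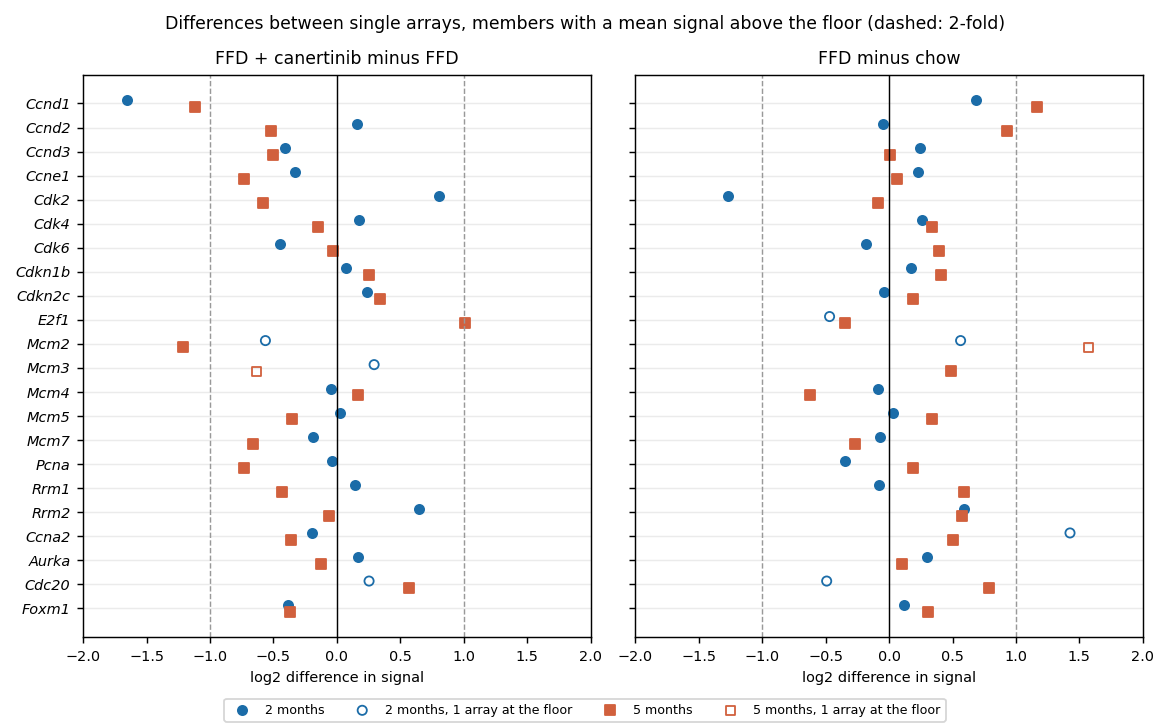
Log2 difference in signal for the 22 members with a mean signal above the floor, canertinib with FFD minus FFD on the left and FFD minus chow on the right. Each point is a difference between 2 single arrays, open points have 1 array at the floor and are bounds, and dashed lines mark 2-fold. Ccnd1 lies beyond the line for canertinib in both studies, and most 5-month points are left of 0 on the left and right of 0 on the right.

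In small amounts the members leaned one way in the 5-month study and not in the 2-month study. Of the 22 members with a mean signal above the floor, 5 were higher and 17 lower with canertinib than with FFD alone at 5 months, with a median log2 difference of -0.36. Over the 12137 genes with a mean signal above the floor, 48.6% were higher and 49.8% lower, with a median of 0.00. With FFD against chow at 5 months, 18 members were higher and 4 lower, with a median of 0.34, where 45.8% of all these genes were higher and 53.0% lower, with a median of -0.03. Over all 36 members with a probe set, 5 were higher, 20 lower and 11 at the floor on both arrays with canertinib against FFD at 5 months, and 20, 5 and 11 with FFD against chow. Some of the 22 passed the mean with arrays at the floor (E2f1, Mcm2, Mcm3, Ccna2 and Cdc20), so these counts describe the readable members and are no test. Both comparisons contain the 5-month FFD array, so they are not separate readings. With canertinib and FFD against chow at 5 months, which leaves that array out, 12 members were higher and 10 lower, with a median of 0.09. At 2 months 11 were higher and 10 lower with canertinib against FFD, median 0.01, and 11 and 10 with FFD against chow, median 0.02. The chow pair had 8 higher and 13 lower, with a median of -0.05.

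The 5-month medians of all 3 role groups had the sign of the lean, the mitotic ones from only 4 of 13 members. With canertinib against FFD the medians were -0.32 for 10 G1 members, -0.53 for 8 replication members and -0.24 for 4 mitotic members. With FFD against chow they were 0.26, 0.41 and 0.40. Higher with canertinib than with FFD were 3 of the 10 G1 members and 1 of the 4 mitotic members, Cdc20 at 0.57. Within the replication group 7 of 8 were lower with canertinib, the exception being Mcm4 at 0.17. With the FFD 6 of 8 were higher, the exceptions being Mcm4 at -0.62 and Mcm7 at -0.27. Signs in this group differed between probe sets, for the exceptions and for other members. A dimmer Mcm4 probe set, above the floor on 2 arrays, had bounds of -0.48 with canertinib and 0.48 with the FFD. Other Mcm7 probe sets had -0.26, 0.26 and 0.14 with canertinib and 0.31, -0.51 and -0.32 with the FFD. The Mcm7 exception with the FFD was thus missing only from the probe set at 0.31. A second Rrm1 probe set, above the floor on all 6 arrays, had 0.40 with canertinib, where the one used had -0.43. The lists of other cell cycle genes did not show such a difference between the studies. Members and lists were both chosen with earlier results of these data known, so setting them side by side is no test. Of 68 such genes with a mean signal above the floor, out of 99 with a probe set, 28 were higher and 39 lower with canertinib at 5 months, median -0.13, and 29 and 38 at 2 months, median -0.11. With the FFD 34 were higher and 32 lower at 5 months, median 0.01, and 37 and 29 at 2 months, median 0.04.

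**Figure D4:**
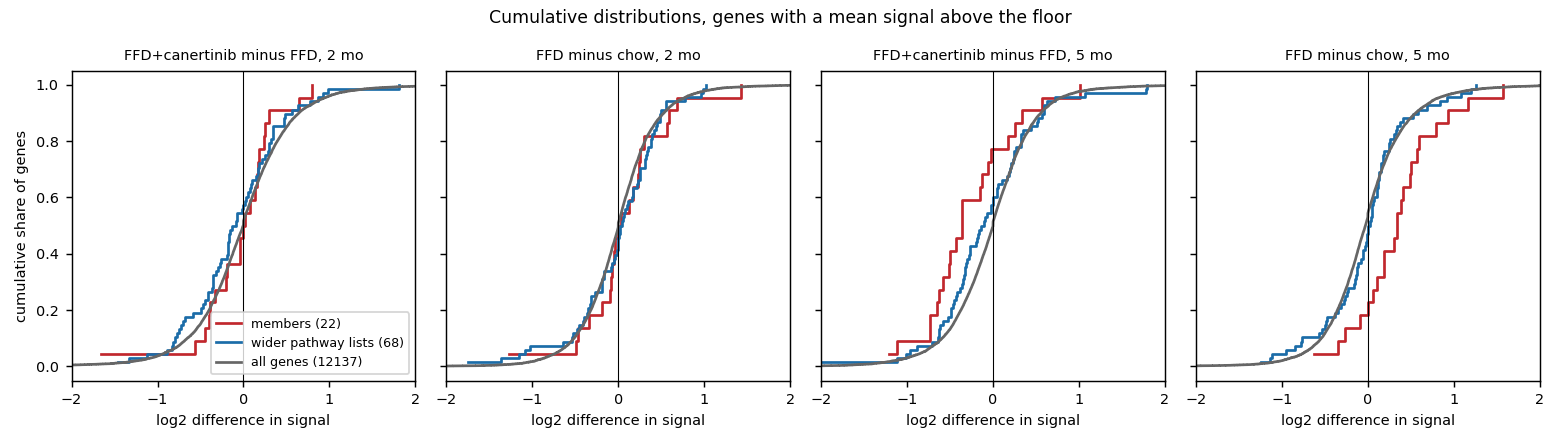
Cumulative share of genes against the log2 difference in signal, for 22 members, 68 genes of the wider cell cycle lists and all 12137 genes with a mean signal above the floor. In the 5-month panels the line of the members lies left of all genes for canertinib against FFD and right of them for FFD against chow, while in the 2-month panels the lines run together near 0.

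The wider lists held 24 G1, 36 replication and 39 mitosis genes with a probe set that are not members. With canertinib against FFD, 1 of the 99 had a signal 2-fold or more above and 3 below in the 2-month study, and 4 above and 3 below in the 5-month study, beside 2.73% and 2.51%, and then 1.69% and 2.1%, of all genes. FFD against chow put 1 above and 5 below (1.52% and 1.19% of all genes), and then 3 above and 3 below (2.09% and 1.41% of all genes). Cdkn1a, which encodes the inhibitor p21, had 3038 with canertinib, 866 with FFD alone and 911 with chow at 2 months, and 1462, 1026 and 544 at 5 months. It was thus highest with canertinib in each study, with log2 differences against FFD of 1.81 and 0.51, the opposite side from Ccnd1. A second Cdkn1a probe set, at the floor on both chow arrays, had 1.68 and 0.67 with canertinib and bounds of 1.86 and 2.80 with the FFD. The thymidine kinase gene Tk1 had 396, 349 and 780 in the 2-month study, and 424, 360 and 778.5 in the 5-month study, so FFD against chow gave -1.16 and -1.11 on its single probe set, and the canertinib arrays stayed near the FFD arrays, at 0.18 and 0.24.

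The other genes named from these lists were mixed in sign. The kinase gene Wee1, which restrains CDK1, had 0.93 at 2 months and a bound of -2.49 at 5 months for canertinib against FFD. Rfc2, of the clamp loader, had 0.32 and 1.78, and Orc3, of the origin recognition complex, had -1.12 and 0.52. The replication initiation gene Mcm10 had -1.45 and -0.18 with canertinib and -0.54 and -1.13 with the FFD, on a probe set with the ending _a_at. A second Mcm10 probe set, above the floor on 5 arrays, had 0.08 and a bound of -0.44 with canertinib. With the FFD it had -0.16 and -0.27, and the third was under the floor throughout. Some of the named genes kept one sign with canertinib and the other with the FFD in both studies. Ccng1 and the tubulin-binding protein gene Stmn1 were lower with canertinib (-0.75 and -0.42, and -0.89 and -0.36). With the FFD they had 0.78 and 0.34, and 0.98 and 0.41. The kinesin gene Kif2c was higher with canertinib (0.98 and 0.59) and had -1.09 and -0.95 with the FFD. The passenger complex gene Incenp was also higher with canertinib (0.87 and a bound of 1.79). With the FFD it had -0.05 at 2 months, close to no difference, and a bound of -1.24 at 5 months. The other probe sets of Incenp and Stmn1 were under the floor on all 6 arrays. For Kif2c these signs hold for 1 probe set, with the ending _a_at. Of its other probe sets, 2 were above the floor on all arrays and had -0.28 and -0.66, and -0.07 and 0.17, with canertinib. E2f5 was higher with canertinib by 0.30 and 0.33 and with the FFD by 0.49 and 1.20, but its probe set also differed by -1.74 between the chow arrays. The other E2f5 probe sets had -0.17 and -0.08, and 0.28 and -0.07, with the FFD, and 0.57 and 0.78, and -0.91 and 0.12, with canertinib. Cks1b, a CDK-binding subunit gene, had -0.80 and -0.72 with canertinib and -0.52 and 0.05 with the FFD.

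A test was possible only by taking the 2 studies as repeats of each other. A limma fit with terms for treatment and study left 2 residual degrees of freedom over the 12137 genes, 22 of them members. Ccnd1 fell with canertinib against FFD, by 1.39 on the log2 scale (95% interval -1.92 to -0.85, limma Benjamini-Hochberg adjusted p = 0.0179). It was the only 1 of 22 members called, where 3.16% of the genes were called. For FFD against chow, 0 of 22 members were called by limma, where 0.956% of the genes were, and 3 members (Ccnd1, Mcm2 and Ccna2) had an unadjusted p under 0.05, as did 11.3% of the genes. Ccnd1 there had a log2 difference of 0.92 (95% interval 0.39 to 1.46, limma adjusted p = 0.149).

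With canertinib and FFD against chow, 0 of 22 members were called by limma, where 3.4% of the genes were, and 2 (Rrm2 and Mcm7) had an unadjusted p under 0.05, as did 18.0% of the genes. Rrm2 had 0.88 (95% interval 0.29 to 1.46, limma adjusted p = 0.112) and Mcm7 had -0.60 (95% interval -1.07 to -0.12, limma adjusted p = 0.177). Ccnd1 had -0.46 (95% interval -1.00 to 0.07, limma adjusted p = 0.343), so its level with canertinib was not shown to differ from chow. For canertinib against FFD, Mcm2 had -0.89 (limma adjusted p = 0.172) and Ccnd3 had -0.45 (limma adjusted p = 0.250), and neither passed.

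The call of Ccnd1 depended on the fit. It was lost without the variance trend (limma adjusted p = 0.0658), with the mean over the 3 probe sets of the gene (limma adjusted p = 0.158), and when the 13989 genes above the floor on at least 1 array were tested (limma adjusted p = 0.0954). It was also lost without the 2-month canertinib array, the 2-month FFD array or the 5-month FFD array, with limma adjusted p of 0.117, 0.138 and 0.0979. The sign was negative in each of these fits.

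**Figure D5:**
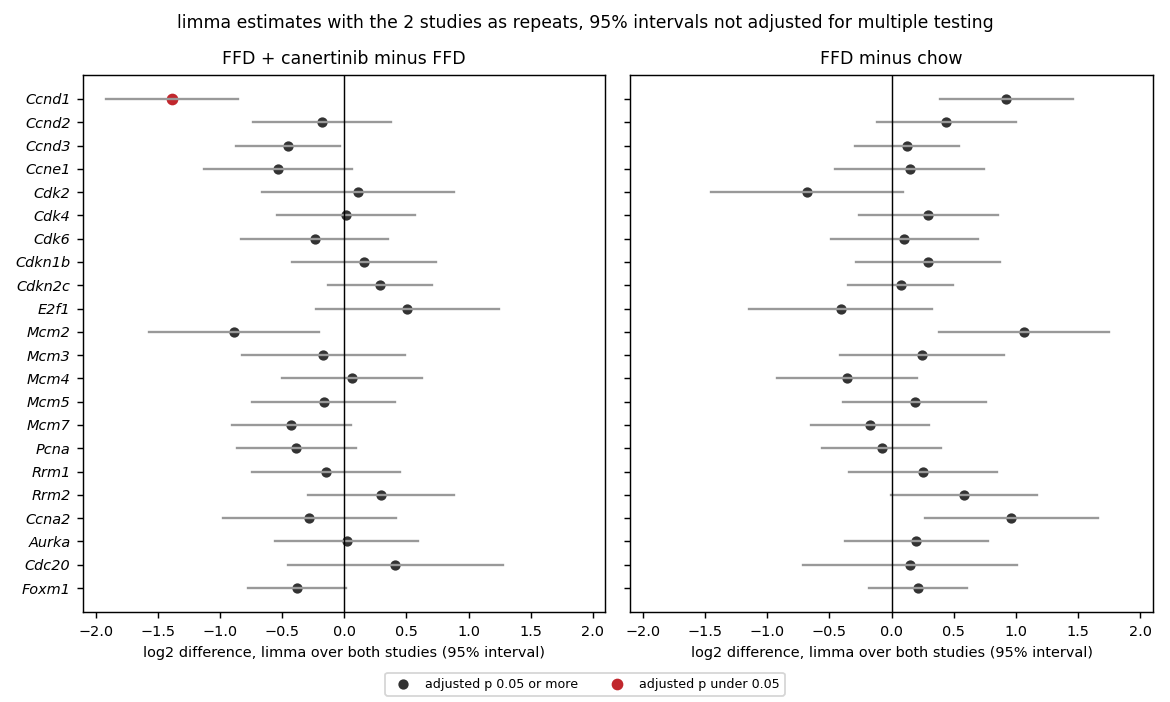
Log2 difference with its 95% interval from limma over both studies for the 22 members with a mean signal above the floor, canertinib with FFD minus FFD on the left and FFD minus chow on the right. Red marks an adjusted p under 0.05, and only Ccnd1 with canertinib, at -1.39, is red.

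Markers of some other cells moved with the same comparisons, and the RNA quality controls also differed between arrays. The summed signal of 7 stellate cell markers was 6745 with canertinib, 10295 with FFD alone and 5566 with chow at 2 months, and 5310, 10854 and 5098 at 5 months, so it was highest on both FFD arrays, as Ccnd1 and Mcm2 were. Of these 7 markers, 6, 6 and 4 were above the floor in the 2-month study and 5, 7 and 5 in the 5-month study. The sum of 7 macrophage markers was 24103, 24713 and 10858 in the 2-month study, and 27830, 31409 and 10648 in the 5-month study, and that of 6 neutrophil markers was 13926, 2382 and 2447 in the 2-month study, and 15676, 2131 and 2597 in the 5-month study. The macrophage sum was thus high on all FFD-fed arrays and the neutrophil sum on the canertinib arrays. Over the arrays the sum lay between 2576 and 3682 for 6 T and NK cell markers, and between 2150 and 3309 for 5 B and plasma cell markers. It lay between 2792 and 4924 for 4 erythroid markers, between 4549 and 7286 for 6 endothelial markers, and between 819 and 1859 for 5 cholangiocyte markers. All 6 hepatocyte markers with a probe set were above the floor on every array, and their sum was 399211, 311707 and 263493 in the 2-month study, and 304916, 222469 and 290728 in the 5-month study. With canertinib against FFD all 6 were higher in both studies, with median log2 differences of 0.46 and 0.50. With FFD against chow 4 were higher and 2 lower at 2 months, median 0.16, and 0 were higher and 6 lower at 5 months, median -0.35. At 5 months the hepatocyte markers thus moved opposite to the lean of the members. At 2 months they were higher with canertinib by a similar median, 0.46, where the members did not lean. Of the 6 endothelial markers, 6 were higher with FFD than with chow at 5 months, median 0.45, and 4 were lower with canertinib than with FFD, median -0.24. At 2 months 5 were higher and 1 lower with FFD than with chow, median 0.16. With canertinib against FFD, 3 were then higher and 3 lower, median 0.20, and 2 of them were at least 2-fold higher. The log2 difference of the 3' over the 5' control probe set of actin, which rises as RNA degrades, was 1.19, 0.85 and 0.94 in the 2-month study, and 1.12, 0.98 and 0.85 in the 5-month study, for canertinib, FFD and chow, and that of Gapdh was -0.20, -0.30 and -0.18 and then -0.14, -0.22 and -0.09. The part of these in the differences of the members was not tested.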

How the data were processed

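The 6 arrays were mapped to groups by their labels, 1 per group. Per the submitters' processing notes the authors used MAS5 (version not given in the sources used here), and the deposited intensity values are linear signals. From the values, the authors' scaling set the mean of each array, without the lowest and highest 2%, to 500. Arrays have no read depth, and precision is set by their number. The platform annotation, which can be old, gives 1 gene symbol for 34958 of the 45101 probe sets, several for 932 and none for 9211.

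Signals were raised to the floor of 221.4 and log2 transformed. A difference with 1 array at the floor is a bound, and one with both there is 0. Genes at least 2-fold different were counted over all 36 members and all 18194 genes, without a test. limma 3.58.1 (R 4.3.3; lmFit and eBayes with a variance trend, Benjamini-Hochberg adjustment) was fitted to all 6 arrays. It was also run on simulated data with the same diet effect in both studies, which does not cover an effect that differs between them. In the limma fit an effect that differs between the studies adds to the error. The p-values thus measure the spread of pools and arrays together with the changes in route, duration and study length. With 1 array per group, the spread between pools alone could not be measured.

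The members and lists were chosen with earlier results of these data known. All 6 signals are given for the members at least 2-fold different in a canertinib or diet comparison and for the 3 brightest of each group. From each wider list the 4 genes with the largest mean absolute log2 difference were named, and other genes named were chosen after their values were seen. Promoters came from the RefSeq table of GRCm38.p6. The remaining steps used Python 3.11.15 with NumPy 2.4.6, pandas 2.3.3 and matplotlib 3.10.9.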

Additional observations from a re-analysis of the deposited data

Results flagged for a closer look

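Cdk2 differed in opposite directions with canertinib against FFD in the 2 studies, with a log2 difference of 0.80 at 2 months and -0.59 at 5 months. Each value is a difference between 2 single arrays, and the difference between the studies was not tested. Signals were 602 with canertinib and 345 with FFD alone at 2 months, and 526 and 789.5 at 5 months. The other Cdk2 probe set is under the floor on all 6 arrays, so both values rest on 1 probe set.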

How the results depend on the processing

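The number of members at least 2-fold different with the diet at 2 months was 2 in the reported setting. It was 3 with a floor at the 40th percentile, where E2f1 joined at -1.09, and 1 with a floor at the 60th percentile. It was 0 when the probe sets of a gene were averaged, and 1 without suffixed probe sets (endings _s_at, _x_at or _a_at). With canertinib at 2 months it was 1, and 2 with a floor at the 40th percentile, where Mcm2 joined at -1.12. With canertinib at 5 months it was 3. It was 2 with a floor at the 60th percentile, with averaged probe sets and without suffixed probe sets. E2f1 fell short there, at 0.55, 0.34 and 0. Of 284 alternative values for single members, 260 moved by less than the spread of the chow pair (a log2 SD of 0.42) and 24 by more, and 0 of those at least 2-fold changed sign. Rrm2 for FFD against chow at 2 months was -0.20 without suffixed probe sets. Foxm1 for FFD against chow at 5 months was -0.10 with averaged probe sets. The values that moved rested on the floor or on the choice of probe set, none on quantile normalization or median centring.

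The 1 member called by limma with canertinib, Ccnd1, became 0 with the mean over probe sets, without the variance trend, and with every gene that any array had above the floor, an alternative chosen after seeing the data. Leaving out 1 array gave 0 to 1 called members with canertinib and 0 to 1 with the diet, where Ccnd1 was called without the 2-month or the 5-month canertinib array (limma adjusted p = 0.0491 and 0.0488). Over all genes, the 383 called with canertinib became 79 with the mean over probe sets, 195 without the trend and 100 with that wider set of genes, and leaving out 1 array gave 101 to 341. The 116 called with the diet became 0, 34 and 4, and 17 to 185. Those against chow, 413, became 70, 218 and 107, and 149 to 441. The study term of the limma fit already compares treatments within each study, and no pairing by replicate was possible because each group holds 1 array and the labels give no replicate numbers. Dim members, mostly mitotic, are limited by the floor.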
